A study of Bubalus bubalis with 3 samples.

Results

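The miR-26 family was examined by small RNA sequencing in fat of Chinese swamp buffalo calves (Bubalus bubalis, 6 months old). Members were chosen by name, and 2 of the 3 planned names, bta-miR-26a and bta-miR-26b (the bovine names, called miR-26a and miR-26b below), were among the 622 miRNA names listed. bta-miR-26c had no row in the table used and was not analysed here. The series consisted of 1 group of 3 small RNA libraries of adipose tissue, with no treatment or genotype named, called library 1, 2 and 3 after the numbers in their titles. The labels give neither the depot nor the sex, nor whether each library came from an animal of its own, so every SD and p-value covers the spread among these samples, part or all of which can be technical. With no second group, no comparison between conditions was made.

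A miRNA guides the silencing machinery to messenger RNAs that pair with its seed, the bases near its 5′ end, and so lowers the output of those targets. In human and mouse the miR-26 genes lie in introns of CTDSP1, CTDSP2 and CTDSPL, small phosphatases that act on RNA polymerase II and, with miR-26, restrain the cell cycle through the retinoblastoma protein. miR-26a comes from the introns of CTDSPL and CTDSP2, and miR-26b from that of CTDSP1. All 3 host genes were found by symbol in the RefSeq annotation of the buffalo assembly NDDB_SH_1, but their transcripts were not measured in these libraries. In cultured human fat progenitors miR-26a favours differentiation and thermogenic gene expression, with the sheddase gene ADAM17 as a target, whereas in mice the family was reported to restrain fat progenitors, with Fbxl19 as a target. EZH2 is a further known target in human cells.

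Values were TPM as deposited. Each column summed to the same total over the listed names, so TPM gives a miRNA's share of that pool and not an amount of RNA per cell. Low values lay on steps of 1 read that were the same for every name, so no scaling by length was visible. The steps correspond to between 5480000 and 6860000 reads per library. In bulk tissue, a difference in the number of cells of a type and a difference in RNA per cell cannot be told apart. As a check on the tissue label, vessel wall miRNAs (3 of 3 listed) summed to 16.7% to 28.0% of TPM, of which all but 1.31% to 2.55% of TPM was miR-143, a miRNA that is also in the list favouring fat cell differentiation below. Red blood cell miRNAs (3 of 3) summed to 0.256% to 0.618%, and white blood cell miRNAs (4 of 4) to 0.0167% to 0.0725%. Striated muscle miRNAs (7 of 7) summed to 9.9 to 36.2 TPM, epithelial miRNAs (6 of 6) to 7.1 to 16.1 TPM, and the hepatocyte miRNA miR-122 had at most 0.6 TPM. In these lists and those of differentiation below, only the more abundant listed arm of each miRNA was counted. The sums thus leave out miR-142-3p (189.4, 23.2 and 34.3 TPM in libraries 1, 2 and 3) and miR-126-3p (963.1, 584.8 and 885.9 TPM). No miRNA of fat cells alone was used, so the label was checked only against other tissues.

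miR-26a was among the most abundant miRNAs of this tissue. It had 116587, 103631 and 70353 TPM in libraries 1, 2 and 3. Library 1 was the highest and library 3 the lowest, a range of 1.66-fold. The mean was 96857 ± 23850 TPM (SD, n = 3), which is 9.69% ± 2.39 of all TPM. miR-26a had rank 3 in every library. In reads, estimated from the step, this was 800000, 702000 and 386000, so the 95% Wilson interval of its share was 11.6% to 11.7% in library 1 and 7.01% to 7.06% in library 3. Intervals cover counting error only, since PCR reads without molecular identifiers are not independent molecules. The libraries differed by far more than counting error.

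miR-26b, which is reported to rise during differentiation of human fat progenitors, was much less abundant. It had 3537, 1657 and 3298 TPM in libraries 1, 2 and 3. Libraries 1 and 3 were close to each other and library 2 was the lowest, a range of 2.13-fold. The mean was 2830 ± 1023 TPM (SD, n = 3), or 0.283% ± 0.102 of all TPM. miR-26b ranked 27, 27 and 25 in the 3 libraries. The estimated reads were 24300, 11200 and 18100. No other listed name began with miR-26 followed by a letter or an arm, so passenger strands were not analysed here.

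**Figure D1:**
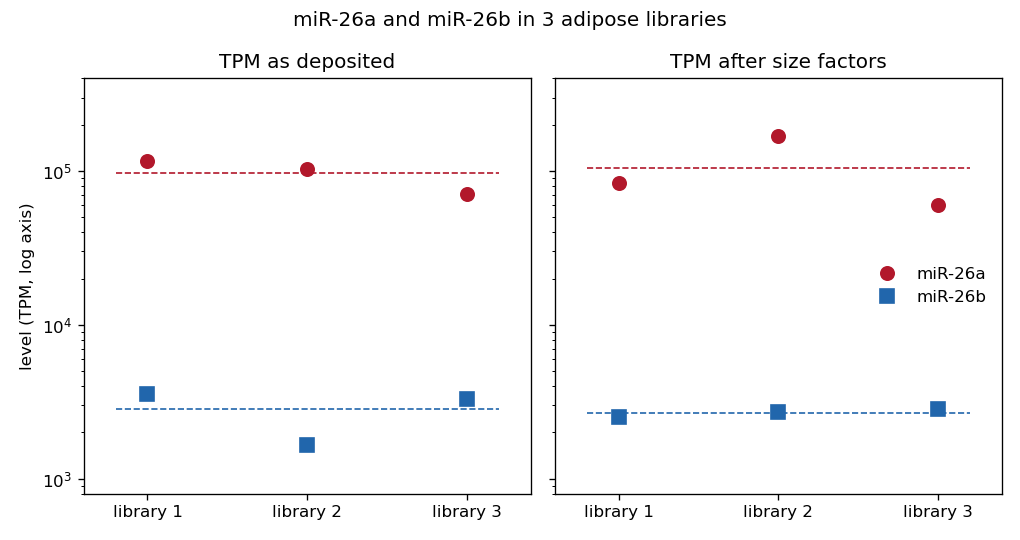
Level of miR-26a (circles) and miR-26b (squares) in each of the 3 libraries on a log axis in TPM, as deposited (left) and after division by size factors (right). Dashed lines mark the mean of the 3 libraries. In the right panel miR-26b lies between 2528 and 2828 TPM, while miR-26a spans 60345 to 168984 TPM.

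Together, miR-26a and miR-26b held 9.97% ± 2.37 of TPM (SD, n = 3), with 12.0%, 10.5% and 7.37% in libraries 1, 2 and 3. Nearly all of the family was miR-26a. Its share of the family was 97.1%, 98.4% and 95.5% in the 3 libraries. The share of miR-26b was accordingly 2.94%, 1.57% and 4.48%, with 95% Wilson intervals of 2.91% to 2.98%, 1.54% to 1.60% and 4.41% to 4.54%. These intervals, which treat reads as independent and cover counting error only, did not overlap. The share in library 3 was 2.85 times that in library 2. The mature sequences of the family are nearly identical, and the sources used here do not say how reads that match both were divided.

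miR-26a exceeded miR-26b in 3 of 3 libraries. The ratio of miR-26a to miR-26b was 32.97 in library 1, 62.5 in library 2 and 21.3 in library 3. On the log2(TPM + 1) scale the difference was 5.04, 5.97 and 4.41, with a mean of 5.14 ± 0.78 (SD, n = 3). It passed the test when each of 165 miRNA names averaging 10 TPM or more was compared with miR-26b within libraries (limma, Benjamini-Hochberg adjusted p = 2.3e-05 over all names). In that comparison 18 names (10.9%) stood above miR-26b and 83.6% of the names below it. All of these differences share the 3 values of miR-26b, so the pooled p-values are too small. Pooling also drew the SD of miR-26a minus miR-26b, 0.78, towards smaller ones. The median SD over all differences from miR-26b was 0.30, and 147 names had a smaller SD than 0.78. With each difference judged by its own spread alone, the adjusted p in limma's fit without pooling was 0.01. With 3 libraries, the smallest two-sided p of an exact permutation test by sign flips is 0.25. Both values come from the same library, so the scale of a library cancels in this difference. Ligation and amplification differ between sequences, and their part in differences between miRNAs was not tested.

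Few miRNAs were close to miR-26a in level. Above it stood miR-10b, a HOXD cluster miRNA, and miR-143, a smooth muscle miRNA that also favours fat cell differentiation in culture. Below it came miR-10a, a HOXB cluster miRNA, and miR-30a-5p, of a family that favours fat cell differentiation by lowering RUNX2. miR-26a lay below miR-10b and miR-143 and above the other 163 names in all 3 libraries. In limma on differences within libraries, 2 of 165 names (1.21%) were above miR-26a and 163 (98.8%) below, at an adjusted p below 0.05. Here too every difference contains the same 3 values, those of miR-26a, so the spread that limma pools over them is less well known than it assumes, and the p-values are too small. In this fit the spread was pooled fully, so every difference had the same standard error, 0.505 log2 units. With each difference judged by its own spread, 1 name was above miR-26a and 163 below.

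With 116587, 103631 and 70353 TPM in libraries 1, 2 and 3, miR-26a was set against miR-143, which had 254722, 153646 and 220689 TPM. The values did not overlap between the miRNAs. The difference of miR-26a minus miR-143 on the log2(TPM + 1) scale was -1.11 ± 0.54 (SD, n = 3; limma adjusted p = 0.028). Without library 1 the difference was -1.11 (adjusted p = 0.158) and without library 3 it was -0.85 (adjusted p = 0.175), each over 2 libraries. With each difference judged by its own spread the adjusted p was 0.0702.

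miR-26a lay below miR-10b by a wider margin, with a difference of miR-26a minus miR-10b of -1.98 ± 0.70 (SD, n = 3; limma adjusted p = 0.00011). miR-10b had 265058, 488469 and 403939 TPM in libraries 1, 2 and 3, and was thus lowest where miR-26a was highest in deposited TPM. After size factors both were highest in library 2, with 796516 TPM for miR-10b and 168984 TPM for miR-26a. miR-26a exceeded miR-10a, which had 24339, 50259 and 22641 TPM, by 1.65 ± 0.61 (limma adjusted p = 0.00125). It exceeded miR-30a-5p, which had 29413, 28680 and 35952 TPM, by 1.60 ± 0.55 (limma adjusted p = 0.00167). In limma's fit without pooling, the adjusted p was 0.0403 for miR-10b, 0.0428 for miR-10a and 0.0384 for miR-30a-5p. Over libraries 2 and 3 alone, the differences were 1.34 for miR-10a (adjusted p = 0.0892) and 1.41 for miR-30a-5p (adjusted p = 0.074).

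**Figure D2:**
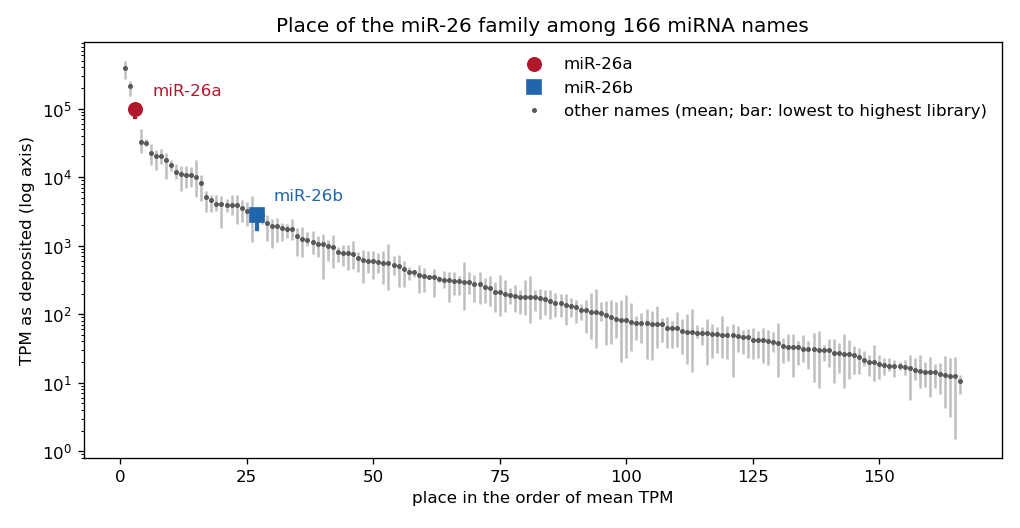
Mean TPM (log axis) of the 166 names averaging 10 TPM or more, in order of mean, with bars from the lowest to the highest of the 3 libraries. miR-26a stands at place 3, apart from its neighbours, and miR-26b at place 27, among names of like level.

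miR-26b, by contrast, stood in a dense part of the order. It was above 83.6% of the 165 other names and below 24 of them in all 3 libraries. The other 3 names, miR-99a-5p, let-7b and miR-411a, lay above it in some libraries and below it in others. At an adjusted p below 0.05 in limma, 9 names were not separated from miR-26b. These were miR-99a-5p, miR-151-5p, miR-125a, let-7i, miR-21-5p, the red blood cell miRNA miR-486, miR-30e-5p, let-7b and the imprinted miR-411a, listed here after their values were seen. With each difference judged by its own spread, 13 names were not separated.

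The names next to miR-26b in mean TPM were miR-30e-5p and miR-411a above it, and let-7b and miR-378 below it. miR-26b had 3537, 1657 and 3298 TPM in libraries 1, 2 and 3, against 4347, 1920 and 3450 TPM for miR-30e-5p. miR-26b was lower in each library by a narrow and steady margin, -0.19 ± 0.12 on the log2(TPM + 1) scale (SD, n = 3; limma adjusted p = 0.277). let-7b had 3142, 2089 and 3139 TPM, and the difference of miR-26b minus let-7b was -0.03 ± 0.27 (limma adjusted p = 0.87). Library 2 was the library in which let-7b was the higher of the pair, and without it the difference was 0.12.

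miR-411a, of the imprinted DLK1-DIO3 region, had 5220, 1130 and 2211 TPM in libraries 1, 2 and 3. miR-26b was thus lower than miR-411a in library 1 and higher in libraries 2 and 3, for a difference of 0.19 ± 0.65 (SD, n = 3; limma adjusted p = 0.531). Without library 1 the difference was 0.56 (adjusted p = 0.0472), and without library 3 it was -0.0050 (adjusted p = 0.99). miR-378, encoded in the PGC-1β gene, was the next name below, with 2824, 1158 and 2533 TPM. miR-26b exceeded it by 0.41 ± 0.10 in 3 of 3 libraries (limma adjusted p = 0.0481). That call was lost under 6 of the 10 alternatives, with adjusted p values up to 0.194.

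**Figure D3:**
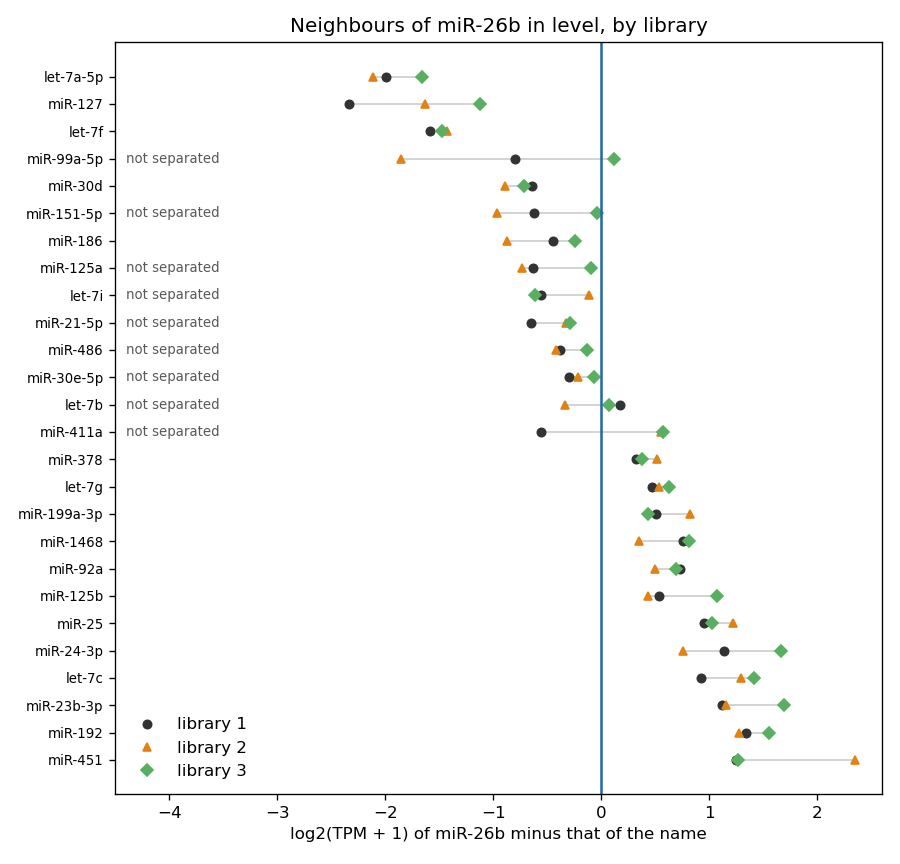
Difference of log2(TPM + 1) between miR-26b and each of the 26 other names at places 14 to 40 in the order of mean TPM, with a point per library. Values left of the line at 0 mean that miR-26b was lower. Of the names marked as not separated, only let-7b, miR-411a and miR-99a-5p have points on both sides of the line. The others so marked lie left of it in every library. Among the marked names, miR-411a and miR-99a-5p spread widest.

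The family was set beside other miRNAs with published roles in fat cell differentiation. Of 24 planned miRNAs that favour differentiation, all were listed and 22 averaged 10 TPM or more. miR-26a was above 21 of these 22 (95.5%) in limma's test, beside 98.8% of all names, the exception being miR-143. It exceeded them by a median of 7.56 log2 units, against a median of 9.34 over all 165 names. After miR-143 and miR-30a-5p, the highest of this list by mean was miR-148a, which lowers the WNT ligand gene WNT1 in human progenitors, with 12133, 6329 and 14415 TPM in libraries 1, 2 and 3. miR-181a was higher than miR-148a in libraries 1 and 2 (14412 and 6945 TPM). miR-26a exceeded miR-148a by 3.19 ± 0.88 log2 units (SD, n = 3). miR-26b was above 15 of the 22 (68.2%, beside 83.6% of all names) and below 5 (22.7%, beside 10.9% of all names), which were miR-143, miR-30a-5p, miR-148a, miR-181a and miR-30d. It was not separated from miR-21-5p and miR-30e-5p.

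Of 22 planned miRNAs that restrain differentiation, 21 were listed and 13 averaged 10 TPM or more. miR-26a was above all 13, beside 98.8% of all names, by a median of 7.02 log2 units, against 9.34 over all names. The highest of them was miR-27b, which lowers PPARG, the master regulator of fat cells, with 30289, 15039 and 21758 TPM in libraries 1, 2 and 3. miR-26a exceeded miR-27b by 2.14 ± 0.57 (SD, n = 3; limma adjusted p = 3.02e-05, and 0.024 in limma's fit without pooling). Next came let-7a-5p and miR-125a, which miR-26a exceeded by 3.22 ± 0.57 and 4.65 ± 0.50 log2 units (SD, n = 3). miR-26b was above 9 of the 13 (69.2%, beside 83.6% of all names), below miR-27b and let-7a-5p (15.4%, beside 10.9% of all names), and not separated from let-7b and miR-125a. Its median margin over the 13 was 1.88 log2 units, against 4.195 over all names.

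miR-26a and miR-26b did not vary together between the libraries. In deposited TPM, miR-26b was highest in library 1 and lowest in library 2, an order it shared with 108 of 165 other names (65.5%). miR-26a was highest in library 1 and lowest in library 3, an order it shared with 5 (3.03%). Library 2 was the lowest for 152 of all 166 names. After the size factors described below, miR-26a and miR-26b each shared their order with 32 of 165 other names (19.4%). miR-10b took 26.5%, 48.8% and 40.4% of TPM in libraries 1, 2 and 3. Once miR-10b was left out of the total, miR-26a held 15.9%, 20.3% and 11.8% of the rest and miR-26b 0.481%, 0.324% and 0.553%. Library 2 was then the highest of the 3 for miR-26a and the lowest for miR-26b.

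Size factors, the median over the 166 names of a library's ratio to the geometric mean of the libraries, were 1.40, 0.613 and 1.17 in libraries 1, 2 and 3. After division by them miR-26b was nearly level, with 2528, 2702 and 2828 TPM, a range of 1.12-fold. The SD of its log2(TPM + 1) was 0.60 before and 0.08 after scaling, beside medians over all names of 0.66 and 0.29. Without library 2 it was 0.07 before scaling. After scaling, 15 of the other names had a smaller SD than miR-26b and 150 a larger one. Among names of at least 1000 TPM, let-7g (0.01), miR-30e-5p (0.04) and let-7f (0.06) had smaller SDs, and these were picked out after their values were seen.

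miR-26a moved the other way. After division by size factors it had 83356, 168984 and 60345 TPM in libraries 1, 2 and 3, so library 2 was the highest and stood 2.80-fold above library 3. The SD of its log2(TPM + 1) was 0.38 before and 0.76 after scaling, and without library 3 it was 0.12 before scaling. Before scaling 149 other names had a larger SD than miR-26a, and after scaling 17 did. Among names of at least 1000 TPM, 5 had a larger SD after scaling, which were miR-10a (1.25), miR-10b (1.04), miR-99a-5p (0.96), miR-100 (0.93) and miR-99b (0.80). Which of the scales reflects amounts of RNA cannot be told from shares of reads.

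**Figure D4:**
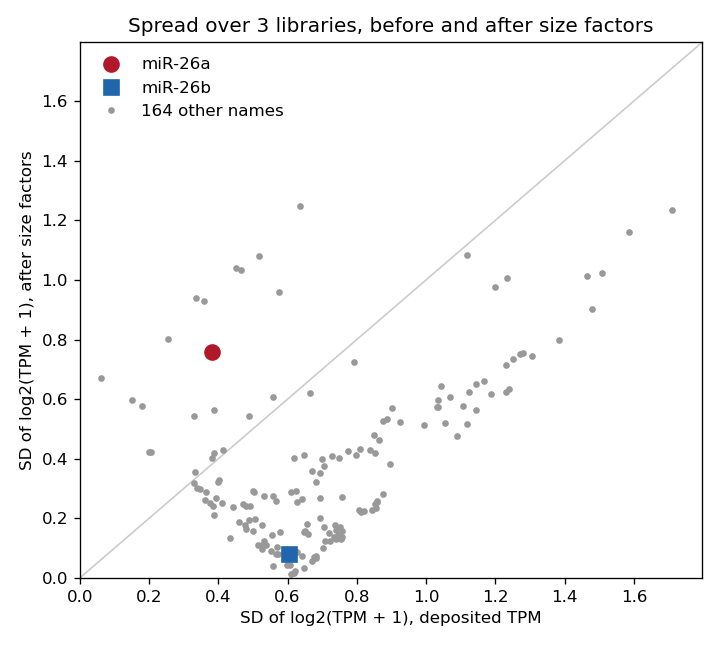
SD of log2(TPM + 1) over the 3 libraries for each of the 166 names, in deposited TPM (horizontal axis) and after size factors (vertical axis), with the diagonal of equal SD. miR-26a (circle) lies above the diagonal, with 0.38 and 0.76, and miR-26b (square) far below it, with 0.60 and 0.08.

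The pattern of each miRNA over the libraries was compared with that of every other name by the Euclidean distance between log2 deviations from their own means after size factors. This distance is small where the ratio of a pair of miRNAs is steady over the 3 libraries, whatever the scale. The names most like miR-26a were miR-99b (distance 0.30), miR-99a-5p (0.30) and miR-148b (0.35), against a median distance of 1.16 over all names. The first of them, miR-99b, is clustered with let-7e and miR-125a. miR-26a deviated by -0.18, 0.84 and -0.65 in libraries 1, 2 and 3, and miR-99b by -0.42, 0.92 and -0.50. miR-99a-5p, clustered with let-7c, deviated by -0.13, 1.02 and -0.89, and miR-148b, of the miR-148 family, by -0.32, 0.69 and -0.36. All 4 were highest in library 2 and lowest in library 3, an order that miR-26a shared with 32 of 165 other names (19.4%) after size factors. The 3 names were chosen by their likeness to miR-26a, so their sharing its order is no separate result.

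In library 2, 8 of 165 names (4.85%) deviated upwards at least as far as miR-26a. They were, chosen by this measure after the values were seen, miR-10a, miR-1271, the candidate name 7_28048, miR-10b, miR-379, miR-100, miR-99a-5p and miR-99b. The red blood cell miRNAs summed to 6182, 2558 and 5046 TPM in libraries 1, 2 and 3, the white blood cell miRNAs to 725, 167 and 262 TPM, and the vessel wall miRNAs to 28.0%, 16.7% and 24.5% of TPM, all as deposited. These sums were lowest in library 2, as were 152 of the 166 names. After size factors the red blood cell sums were 4420, 4170 and 4328 TPM, the white blood cell sums 518, 272 and 225 TPM, and the vessel wall sums 200343, 271923 and 210544 TPM. On that scale 59 of the 166 names (35.5%) were highest in library 2. So was the vessel wall sum, in the library where the ratio of miR-26a to miR-26b was highest. Most of that sum was miR-143, with 182118, 250542 and 189293 TPM after size factors in libraries 1, 2 and 3. miR-126-5p had 17525, 20609 and 20023 TPM, and miR-145 had 700, 772 and 1228 TPM, highest in library 3. The part of these miRNAs in the ratio of miR-26a to miR-26b was not tested.

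The names most like miR-26b were miR-17-5p (distance 0.06), miR-221 (0.06) and miR-423-5p (0.06), against a median distance of 0.44 over all names. miR-17-5p belongs to the miR-17-92 cluster, which favours cell proliferation, and miR-221 is reported to restrain fat cell differentiation. miR-26b deviated by -0.09, 0.01 and 0.08 in libraries 1, 2 and 3. miR-221 deviated by -0.05, 0.02 and 0.03, with 162, 74.4 and 143.1 TPM as deposited. miR-423-5p deviated by -0.05, -0.04 and 0.08, with 228, 101 and 209 TPM. All of these stayed within 0.1 log2 units of their means in every library. With 3 libraries these likenesses are descriptions and carry no test.

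**Figure D5:**
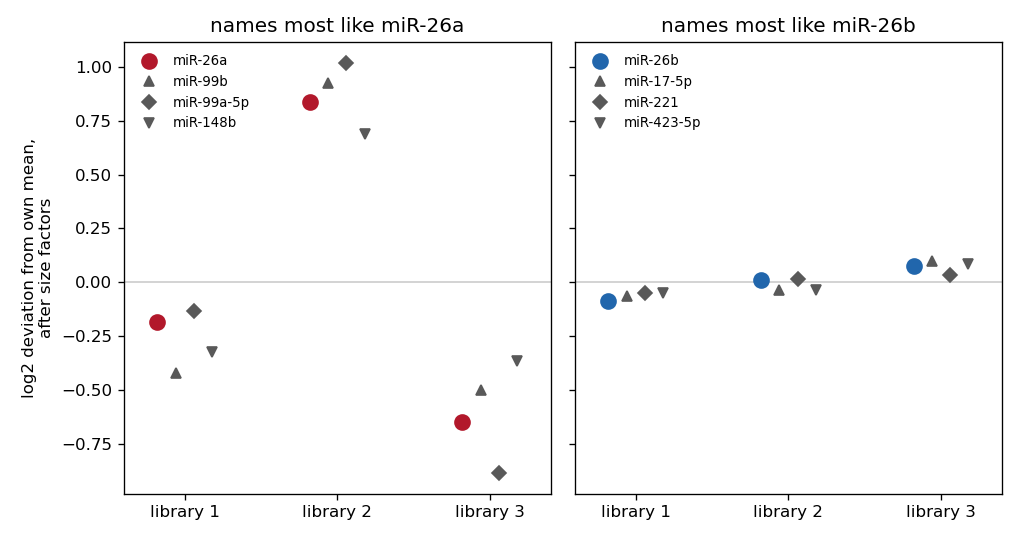
Log2 deviation from each name's own mean after size factors, per library, for miR-26a with the 3 names most like it (left) and miR-26b with the 3 names most like it (right). The names on the left are high in library 2, at 0.69 to 1.02, and those on the right stay within 0.1 of 0.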

How the data were processed

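Small RNA of adipose tissue from swamp buffalo aged 6 months was sequenced in 3 libraries. Per the labels' protocols, RNA was extracted with TRIzol, adaptors were ligated with a TruSeq kit and cDNA was cut from a gel. The submitters' processing notes name Bowtie and the bovine build UMD3.1, without their role. The sources used here do not state the counting program, the miRNA annotation or the rule for reads matching several miRNAs. TPM were deposited by the authors with 1 decimal, in a table of 622 names, of which 396 are known bovine miRNAs. All 3 columns were mapped to samples by name.

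Reads were estimated from the steps between values up to 30 TPM. At least 99.5% of them lay on a step within rounding, beside 54.8% to 68.6% for values placed at random. The steps were fitted to these same values. Rounding of 0.1 TPM is coarse against the step, so no count model was used. Values were analysed as log2(TPM + 1), which understates differences of low miRNAs. The 166 names averaging 10 TPM or more were compared with each member within libraries, using limma 3.58.1 in R 4.3.3. Benjamini-Hochberg adjustment was over all 165 comparisons with a member. The fit was also run on simulated names that varied independently of each other, which cannot show how it behaves where names vary together. Size factors were medians of ratios over the 166 names. The members and lists were chosen with earlier results of these data known. Named miRNAs were the members, the 2 names above and below each in mean TPM, the 3 most like each by profile, and the 3 highest of each role list. Mature sequences were not used here, so names that share a seed were not sought.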

Additional observations from a re-analysis of the deposited data

How the results depend on the processing

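The difference of miR-26a minus miR-26b kept its direction and its call under all 10 alternatives, between 4.73 and 5.50 log2 units, with limma adjusted p from 4.83e-55 (no minimum mean) to 0.01 (each difference judged by its own spread); the pooled p-values are too small, since all differences share the 3 values of miR-26b. That setting and size factors over all names above 0 in every library were chosen after seeing the data. miRNAs were paired within libraries, but no pairing of samples between groups was possible because the series has 1 group. The settings planned for miR-26c were not run.

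Leaving miR-10b out of the total moved the share of miR-26a to 15.98%, that of miR-26b to 0.453% and that of the family to 16.4%. Leaving out a library gave 8.70% to 11.01% for miR-26a, 0.248% to 0.342% for miR-26b and 8.95% to 11.3% for the family. The spread of miR-26a was 0.76 after size factors, 0.79 after those over all names above 0, and 0.12 to 0.52 with a library left out, lowest without library 3. The spread of miR-26b was 0.081 after size factors, 0.046 after those over all names above 0, and 0.071 to 0.77 with a library left out, lowest without library 2.

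Names above miR-26a numbered 1 with each difference judged by its own spread and 1 to 2 with a library left out, miR-143 not being called without library 1 or 3, where the difference of miR-26a minus miR-143 was -1.11 and -0.85. Names below miR-26a were 619 with no minimum mean and 92 with a minimum of 100 TPM, and names below miR-26b 591 and 67, because more or fewer names were tested. With a library left out, 17 to 20 names were above miR-26b, 134 to 137 below it, and 161 to 163 below miR-26a. Among neighbours, miR-26b minus miR-411a ranged from -0.0050 (without library 3, reversed) to 0.56 and miR-26b minus let-7b from -0.13 to 0.12 (without library 2, reversed), and the cause was not tested. Of the 3 names most like miR-26a, 2 remained with a pseudocount of 10 and 3 with 0.1, and for miR-26b 3 remained with both. A change of scale cannot move this measure except through the pseudocount, and it was not run with a library left out.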
